A study of Homo sapiens with 8 samples.

Results

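SH-SY5Y is a human neuroblastoma cell line widely used as a model of neurons, and 9-cis retinoic acid, a ligand of the retinoid receptors, is used to differentiate it. The results below describe 37 genes of antioxidant defence, glutathione metabolism and the NRF2 pathway in differentiated against undifferentiated SH-SY5Y cells. The 37 members were chosen by gene symbol out of 52719 genes, without a threshold on their values but with earlier results of these data known. The same holds for the other gene lists below, so counts of calls over members and lists are descriptions only. They comprise the regulator NFE2L2 (which encodes NRF2) and its partner KEAP1, the oxidoreductases HMOX1 and NQO1, 4 genes of glutathione synthesis and recycling, 5 glutathione peroxidases, 6 peroxiredoxins with sulfiredoxin (SRXN1), 3 thioredoxin genes, 3 superoxide dismutases with catalase, 7 glutathione transferase genes and 3 metallothioneins.

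The differentiated group consisted of 4 libraries (replicates 21 to 24) from cells given 1 µM 9-cis retinoic acid over 7 days. The undifferentiated group consisted of 4 libraries (replicates 17 to 20) of the same line. Per the labels' protocols, the culture medium was DMEM/F12 supplemented with foetal calf serum and antibiotics. The time in culture of the undifferentiated cells and any vehicle (not given in the sources used here) cannot be told apart from the retinoid. The labels do not say whether libraries of a group came from separate cultures, so p-values rest on the spread between libraries that may be technical replicates. Levels are in TPM, which counts a transcript's reads per length as a share of the library, and were added up over the transcripts of a gene. TPM can be compared between genes. Values of single libraries are listed in the order of replicates 21, 22, 23 and 24 for differentiated cells and 17, 18, 19 and 20 for undifferentiated cells.

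NRF2 is a transcription factor that the adaptor KEAP1 holds at a low level by directing it to the proteasome. Oxidants and electrophiles modify KEAP1, and NRF2 then pairs with a small MAF protein at antioxidant response elements near genes for glutathione synthesis, quinone reduction and thiol recycling. Neurons have been described as weak in this response compared with glia, and catecholamine-making cells such as SH-SY5Y also form hydrogen peroxide when monoamine oxidase acts on their transmitters. Metallothioneins bind zinc and copper through cysteine thiols and are controlled by the metal sensor MTF1 at metal response elements.

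RefSeq promoter windows are shown first for 6 of the 7 members with an antioxidant response element core in a window, and GSTA4 is left out. NRF2 is known to bind such letters. The metal sensor is known to bind those of the metal response element core, which the TXNRD1 window shown lacks. Each line gives the 250 bases before a RefSeq transcription start (GRCh38.p14), 5′ to 3′ on the strand of the gene, in lower case. Capitals mark every match on either strand to the antioxidant response element core TGACNNNGC, the metal response element core TGCACNC or TGCGCNC, or the retinoid receptor hexamer AGGTCA, and adjacent matches run together.
MT2A (chr16:56608334-56608583, plus strand): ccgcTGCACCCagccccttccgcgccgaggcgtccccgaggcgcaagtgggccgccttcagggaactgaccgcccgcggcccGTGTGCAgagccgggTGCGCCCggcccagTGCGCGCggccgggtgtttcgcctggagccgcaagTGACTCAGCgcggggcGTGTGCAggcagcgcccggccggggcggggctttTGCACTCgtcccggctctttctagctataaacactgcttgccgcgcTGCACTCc
MT1X (chr16:56682220-56682469, plus strand): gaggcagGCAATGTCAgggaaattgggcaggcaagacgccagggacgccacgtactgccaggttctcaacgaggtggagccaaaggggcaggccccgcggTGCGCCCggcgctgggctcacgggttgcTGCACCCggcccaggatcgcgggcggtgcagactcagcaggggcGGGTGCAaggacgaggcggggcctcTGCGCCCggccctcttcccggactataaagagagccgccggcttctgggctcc
GCLM (chr1:93909431-93909680, minus strand): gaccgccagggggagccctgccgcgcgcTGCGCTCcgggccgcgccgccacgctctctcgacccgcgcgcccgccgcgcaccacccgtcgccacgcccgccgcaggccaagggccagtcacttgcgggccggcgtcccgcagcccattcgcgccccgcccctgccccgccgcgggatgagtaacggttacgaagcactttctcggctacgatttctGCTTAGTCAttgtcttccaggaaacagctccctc
GSTP1 (chr11:67583562-67583811, plus strand): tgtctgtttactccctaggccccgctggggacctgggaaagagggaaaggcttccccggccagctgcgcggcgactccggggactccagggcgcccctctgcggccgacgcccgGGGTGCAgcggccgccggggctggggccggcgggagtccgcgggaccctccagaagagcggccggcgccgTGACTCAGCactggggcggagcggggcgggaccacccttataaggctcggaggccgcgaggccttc
KEAP1 (chr19:10502772-10503021, minus strand): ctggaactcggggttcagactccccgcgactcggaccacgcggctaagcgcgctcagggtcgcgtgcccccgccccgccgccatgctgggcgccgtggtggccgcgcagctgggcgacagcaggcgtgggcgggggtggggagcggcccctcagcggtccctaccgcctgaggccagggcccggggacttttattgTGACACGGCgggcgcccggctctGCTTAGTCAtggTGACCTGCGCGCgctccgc
TXNRD1 (chr12:104286782-104287031, plus strand): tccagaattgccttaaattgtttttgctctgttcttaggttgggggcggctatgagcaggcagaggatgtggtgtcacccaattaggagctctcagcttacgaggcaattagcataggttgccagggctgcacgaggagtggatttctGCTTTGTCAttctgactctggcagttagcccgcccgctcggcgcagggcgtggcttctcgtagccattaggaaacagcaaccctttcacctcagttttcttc

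The MT2A window holds 7 metal response element cores and 1 antioxidant response element core, and the MT1X window holds 4 and 1. GCLM and GSTP1 hold 1 of each. The KEAP1 window is the one before the downstream of its RefSeq starts and holds 2 antioxidant response element cores, 1 metal response element core and 1 retinoid receptor hexamer, the last of which shares bases with the metal core. The TXNRD1 window, likewise before the downstream RefSeq start, holds 1 antioxidant response element core. RefSeq starts differ from the annotated starts of the transcripts measured here. MT2A-201 starts at 56608199 and TXNRD1-205 at 104286682, both upstream of the whole window shown. KEAP1-202, GSTP1-202 and MT1X-201 start inside their windows. For these leading transcripts the window is therefore not, or not wholly, upstream of the start.

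RefSeq windows were found for 29 of the 37 members, 40 windows in all. The antioxidant core occurred in windows of 7 members (GCLM, GSTA4, GSTP1, KEAP1, MT1X, MT2A and TXNRD1), and in 8 of the 40 windows, against 10.9% of the 35116 promoter windows of all genes. The metal core occurred in windows of 16 members and in 18 of the 40 windows, against 24.8% of all windows. The retinoid receptor hexamer occurred in windows of 5 members (GSTA4, KEAP1, PRDX4, SOD2 and SOD3), and in 6 of the 40 windows, against 12.1% of all windows. No member window held the hexamer as a direct repeat with 1, 2 or 5 bases between, and 0.0228% of all windows did. A match is a description of letters, not a measured binding site, and a window of this length leaves out elements farther away.

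The number of genes at 1 TPM or above ranged from 16265 to 17370 per library, and read depth is unknown because TPM keeps none, so counting error could not be given. Within the differentiated group replicate 22 stood apart, as the lowest of the 4 libraries in 54.7% of all genes tested, so counts of calls are also given without it. Of 12 markers of noradrenergic neuroblastoma cells none was absent, although most were lower in differentiated cells. They summed to 1662 to 1907 TPM in differentiated and 2732 to 2846 TPM in undifferentiated libraries. All 12 were tested, with 1 higher and 9 lower in differentiated cells. Of all genes tested, 33.9% were higher and 17.4% lower, which also stands beside the marker counts that follow. Of 8 fibroblast markers, 7 were tested, and of these 4 were higher and none lower. The 8 summed to 639.4 to 820.6 TPM in differentiated and 209.8 to 220.3 TPM in undifferentiated libraries. COL1A2 averaged 0.143 TPM in differentiated and 0.142 TPM in undifferentiated cells. Of 7 Schwann cell markers, 4 were tested and 2 of these were higher. The 7 summed to 61.5 to 70.3 TPM in differentiated and 27.2 to 29.1 TPM in undifferentiated libraries, and SOX10 was listed at 0 throughout. Of 8 blood markers only CD68 was tested and higher (sums of 20.5 to 24.0 TPM in differentiated and 1.15 to 1.55 TPM in undifferentiated libraries), with CD3E, HBB and HBA1 at 0. Of 6 epithelial markers, 3 were tested and 2 of these were higher. The 6 summed to 13.7 to 18.3 TPM in differentiated and 2.31 to 3.75 TPM in undifferentiated libraries, with KRT5 at 0. CD68 and both higher epithelial markers averaged under 1 TPM in undifferentiated cells and reached the minimum for a test through their differentiated level. Of 6 endothelial markers 5 were matched, and none reached the minimum for a test, with sums of 0.288 to 0.441 TPM in differentiated and 0.0544 to 0.207 TPM in undifferentiated libraries. Their part in the results below was not tested, and in RNA from whole cultures fewer cells of a type and less RNA per cell cannot be told apart.

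More antioxidant genes were higher than lower in differentiated cells. Genes averaging at least 1 TPM over the 8 libraries were compared with limma on log2(TPM+1), and a call needed an adjusted p below 0.05 (Benjamini-Hochberg, over all 17077 genes tested). Of the 34 members tested, 19 (55.9%) were higher in differentiated cells, beside 33.9% of all genes tested, and 2 (5.88%) were lower, beside 17.4% of all genes. The 21 called members made up 61.8% of those tested, beside 51.3% of all genes, and in 21 members the 2 groups did not overlap in TPM, beside 49.6% of all genes. The 34 members had a median log2 fold change of 0.22, beside 0.10 for all genes tested. Within lane 8, which held all differentiated and 2 undifferentiated libraries, 16 members were higher and 1 lower, beside 25.9% higher and 11.2% lower of all genes there. GPX8 passed the minimum only through its differentiated level, since its mean in undifferentiated cells was 0.992 TPM. Its call carries no weight, although the counts above, that within lane 8 among them, include it. SOD3, MGST1 and MT1E stayed under the minimum. In a count chosen after the data were seen, over genes at 1 TPM or above in each group, 18 of 33 members (54.5%) were higher and 2 (6.06%) lower, beside 33% and 17.6% of all such genes. Among these 33 members GPX3, NFE2L2, NQO1, GSTM2 and GSTM4 were higher by 1 or more on the log2 scale.

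Replicate 22 was the highest of the 4 differentiated libraries in 19 of the 34 members (55.9%), beside 21.6% of all genes tested, and replicate 21 was the lowest in 16 of them (47.1%), beside 17.4% of all genes. Without replicate 22, 20 of 34 members were higher and 3 lower, beside 39% higher and 18.1% lower of all genes in that fit. The 20 include GPX8, whose call carries no weight. The 37 members summed to 3453, 3931, 3732 and 3590 TPM in differentiated libraries, against 3374, 3439, 3419 and 3375 TPM in undifferentiated libraries, or 0.368% of a differentiated library and 0.34% of an undifferentiated one on average.

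**Figure D1:**
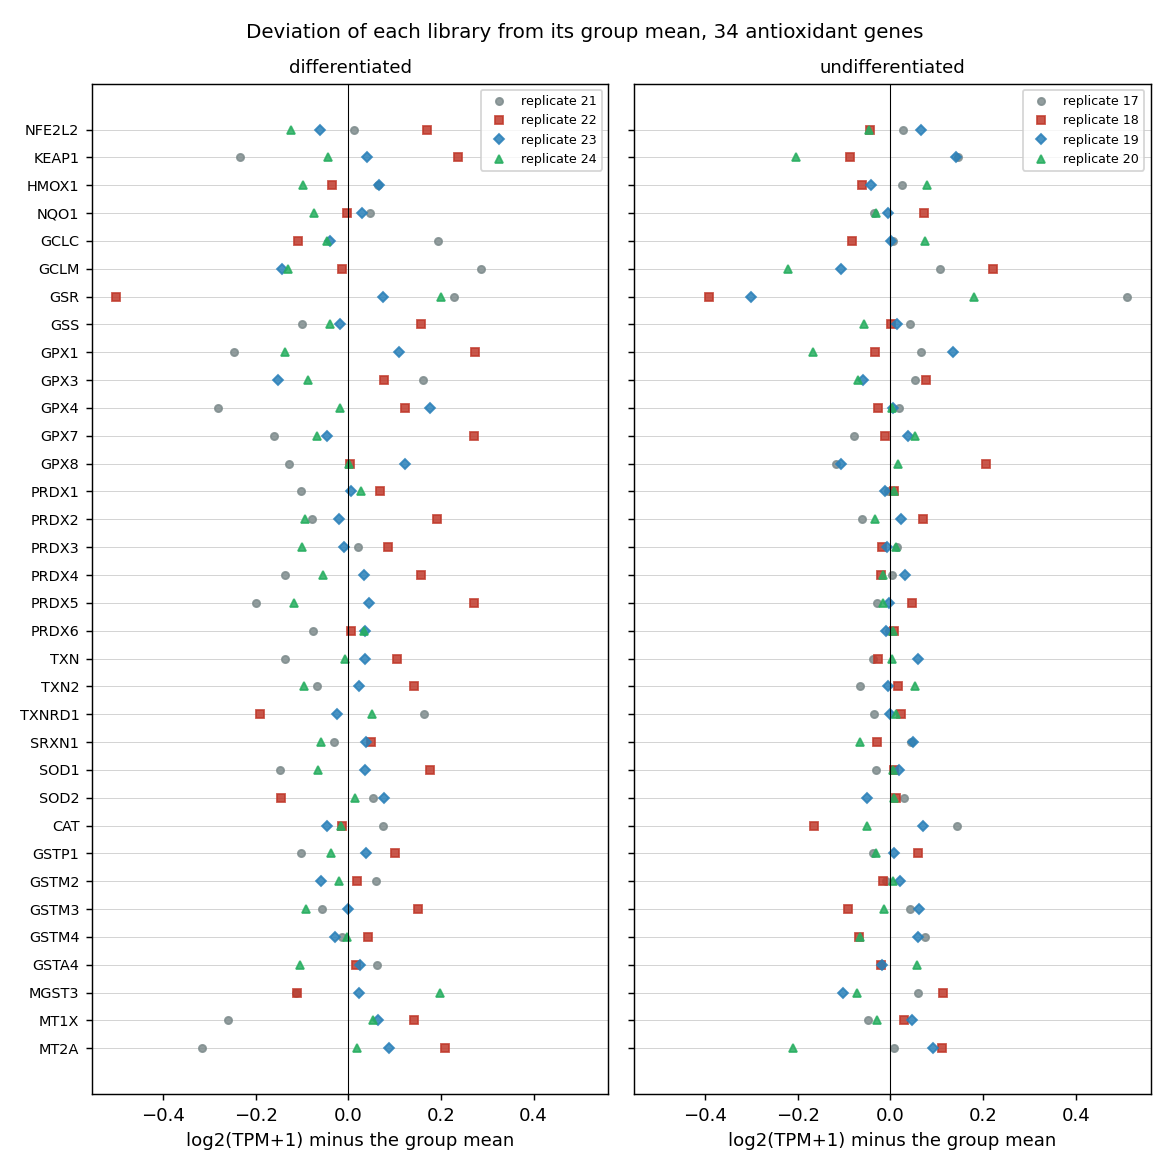
Difference of each library from its group mean in log2(TPM+1) for the 34 tested members, differentiated libraries on the left and undifferentiated ones on the right. Replicate 22 is the highest differentiated library in 19 members and replicate 21 the lowest in 16.

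Scaling bears on the smaller changes, because TPM are shares. The median of all genes moved to -0.02 with median-of-ratios scaling and to -0.07 with quantile normalization, and the share of all calls that were higher was 66.1% in the deposited TPM, 51% after median-of-ratios scaling and 45% after quantile normalization. With either scaling 13 of 34 members were higher and 2 lower. Of all genes, 27.1% were higher and 26.1% lower under median-of-ratios scaling, and 24.4% and 29.9% under quantile normalization. The 13 include GPX8 under both, whose call carries no weight. KEAP1, GSS, PRDX3, PRDX4 and GSTM3 lost their calls under both, PRDX6 under median-of-ratios scaling and GPX7 under quantile normalization. NFE2L2, NQO1, GPX1, GPX3, GPX4, PRDX1, SRXN1, SOD2, CAT, GSTM2, GSTM4 and MT2A were called under each of the 16 alternatives in which calls were recomputed.

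**Figure D2:**
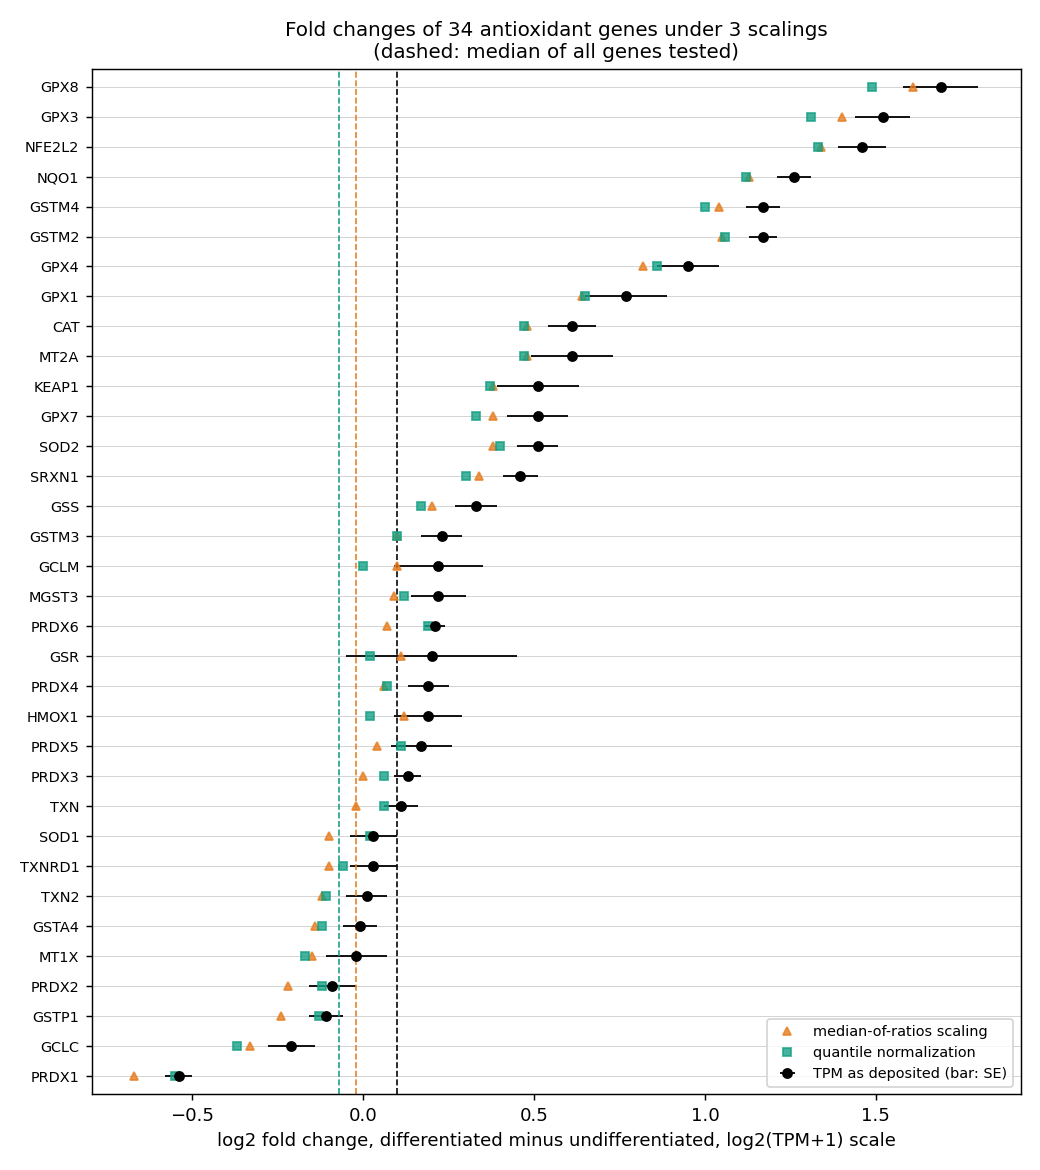
Log2 fold changes of the 34 tested members, differentiated minus undifferentiated, on the log2(TPM+1) scale. Black circles with SE bars are TPM as deposited, triangles median-of-ratios scaling and squares quantile normalization, and dashed lines are the medians of all genes tested (0.10, -0.02 and -0.07). GPX3 and NFE2L2 lie farthest to the right under each scaling after GPX8, which was tested only through its differentiated level, and PRDX1 lies farthest to the left.

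NFE2L2, on chromosome 2 (chr2:177227595-177392697, GRCh38, minus strand), was measured at 83.4, 93.2, 79.2 and 75.9 TPM in differentiated libraries, against 29.9, 28.4, 30.7 and 28.4 TPM in undifferentiated libraries. All differentiated libraries lay far above all undifferentiated ones. The log2 fold change was 1.46 ± 0.07 SE, with a limma adjusted p of 7.1e-07. KEAP1, on chromosome 19 (chr19:10486120-10503741, minus strand), which encodes the adaptor that marks NRF2 for degradation, had 33.6, 46.9, 40.8 and 38.4 TPM in differentiated libraries, against 30.6, 25.9, 30.5 and 23.8 TPM in undifferentiated libraries. The groups did not overlap, although the lowest differentiated library (33.6 TPM) was close to the highest undifferentiated one (30.6 TPM). Its log2 fold change was 0.51 ± 0.12 SE (limma adjusted p = 0.00667), and its call was lost under both other scalings. The level of NFE2L2 divided by that of KEAP1 was 2.097 ± 0.258 in differentiated cells and 1.07 ± 0.09702 in undifferentiated cells (SD, n = 4 each), and the groups did not overlap in this ratio.

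Both genes were read from several coding transcripts. NFE2L2-202 had 44.4 ± 4.29 TPM in differentiated cells and 13.8 ± 1.76 TPM in undifferentiated cells, and NFE2L2-201 had 20.3 ± 2.74 TPM in differentiated cells and 7.09 ± 1.53 TPM in undifferentiated cells (SD, n = 4). Both leading transcripts were higher in all differentiated libraries than in any undifferentiated one, while NFE2L2-206 varied widely within each group. KEAP1-202, the leading KEAP1 transcript, had 22.6 ± 2.38 TPM in differentiated cells and 12.7 ± 1.02 TPM in undifferentiated cells, and KEAP1-201 had 4.22 ± 0.991 TPM in differentiated cells and 4.24 ± 0.855 TPM in undifferentiated cells. NFE2L2 overlaps AGPS on the opposite strand and an unnamed gene on its own strand, so reads in the overlaps may be divided uncertainly.

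Of 20 other genes of NRF2 control, 19 were tested, 8 were higher and 2 lower in differentiated cells, with a median log2 fold change of 0.13. That is 42.1% higher and 10.5% lower, beside 33.9% and 17.4% of all genes tested, whose median was 0.10. MAFK and MAFF, small MAF partners of NRF2, had log2 fold changes of 1.62 ± 0.11 SE (limma adjusted p = 5.71e-06) and 1.35 ± 0.09 SE (limma adjusted p = 4.92e-06). MAFK had 11.3, 9.703, 12.5 and 11.9 TPM in differentiated libraries, against 3.21, 2.57, 2.78 and 3.57 TPM in undifferentiated libraries. MAFF averaged 4.39 ± 0.271 TPM in differentiated cells and 1.12 ± 0.113 TPM in undifferentiated cells (SD, n = 4). BACH1, a repressor that competes with NRF2 for the same elements, was higher by 0.80 ± 0.13 SE on the log2 scale (limma adjusted p = 0.00103), and averaged 27.1 ± 5.37 TPM in differentiated cells and 14.9 ± 1.201 TPM in undifferentiated cells. SQSTM1, the autophagy receptor that can sequester KEAP1, was higher by 0.67 ± 0.12 SE (limma adjusted p = 0.00149), but with coding transcripts alone its log2 fold change was 0.17 and it was not called.

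**Figure D3:**
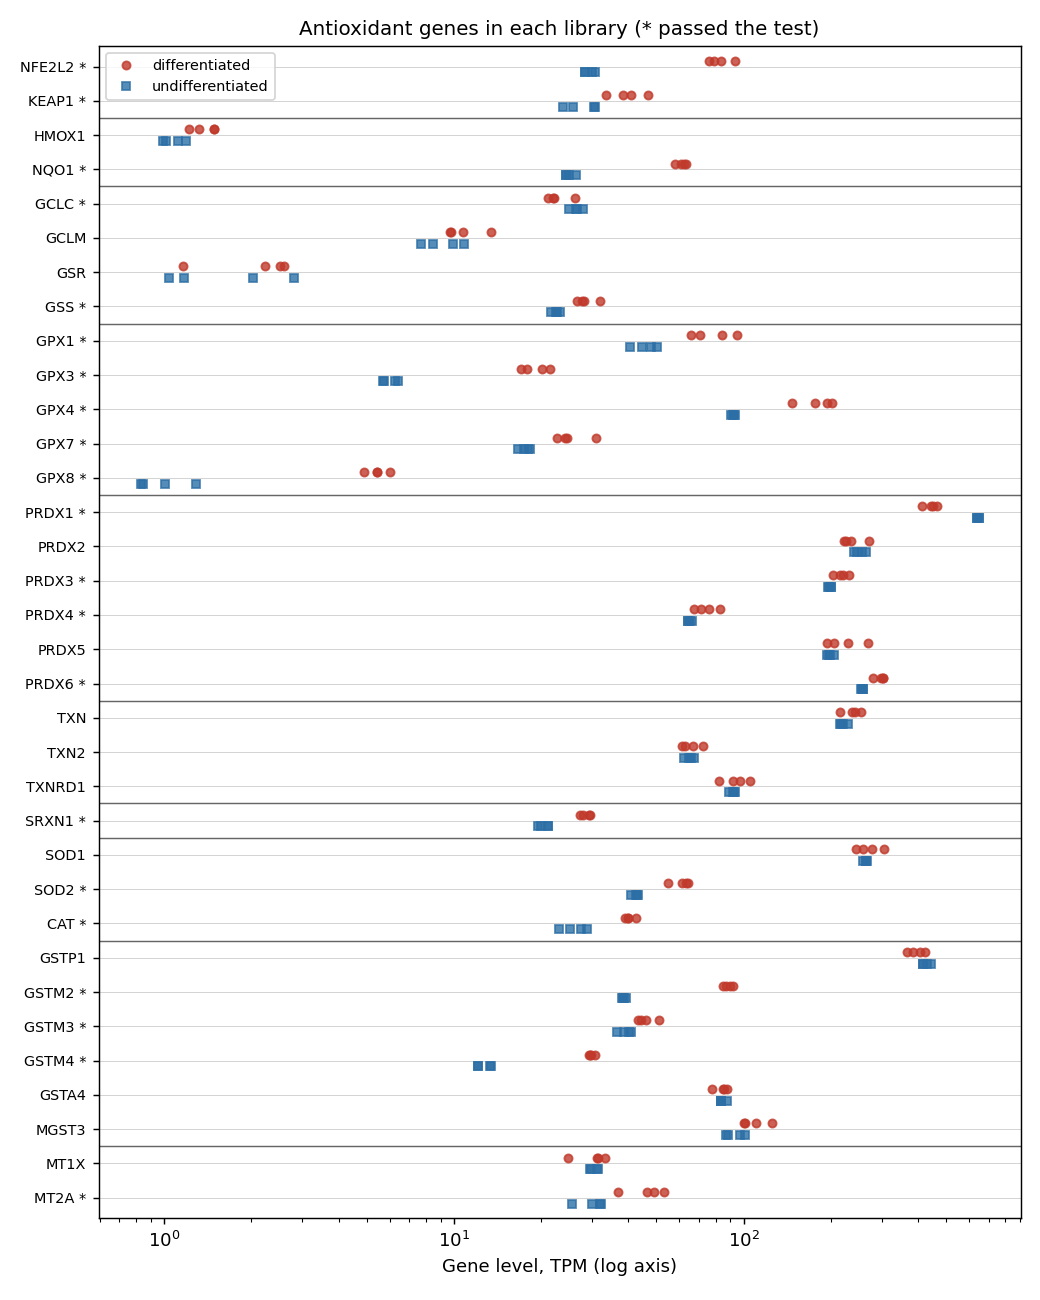
TPM of each of the 34 tested members in each library on a log axis, with differentiated libraries (circles) above undifferentiated ones (squares) and lines between families. An asterisk marks the 21 members that passed the test, and PRDX1 is the most abundant member in both groups.

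NQO1, the quinone reductase that is a classical NRF2 target, was measured at 63.2, 60.9, 62.3 and 58.0 TPM in differentiated libraries, against 24.4, 26.4, 24.9 and 24.4 TPM in undifferentiated libraries. The groups were well separated, and the values within each were close together. Its log2 fold change was 1.26 ± 0.05 SE (limma adjusted p = 2.1e-07). It lies on chromosome 16 (chr16:69706996-69726951, minus strand). HMOX1, the heme oxygenase that is another classical target, was scarce, at 1.48, 1.32, 1.48 and 1.22 TPM in differentiated libraries, against 1.11, 0.989, 1.02 and 1.19 TPM in undifferentiated libraries. All 4 differentiated values were above all undifferentiated ones, but its log2 fold change of 0.19 ± 0.10 SE did not pass the test (limma adjusted p = 0.147). With coding transcripts only it was 0.26 and passed. The coding HMOX1-201 averaged 1.21 TPM in differentiated cells and 0.845 TPM, under the minimum, in undifferentiated cells, so that call carries no weight. At these levels the log2(TPM+1) scale understates a change, and the ratio of mean TPM over all HMOX1 transcripts was 1.28.

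Of 39 other NRF2 targets and genes of NADPH supply, 33 were tested, and 20 were higher and 9 lower, with a median log2 fold change of 0.40, beside 33.9% higher, 17.4% lower and a median of 0.10 over all genes. The 20 include AKR1C3 and CBR3, which averaged under 1 TPM in undifferentiated cells and so were tested only through their differentiated level. Without them 18 of 31 were higher (58.1%) and 9 lower (29%), with a median of 0.39. Of all genes at 1 TPM or above in each group, 33% were higher and 17.6% lower, so both shares of this list were larger. The genes named next had the largest changes and were all higher, and none of the 9 lower genes is among them. ABCC3, a transporter that exports glutathione conjugates and bile salts, had 46.4, 29.2, 37.5 and 47.7 TPM in differentiated libraries, against 1.72, 1.96, 1.66 and 1.82 TPM in undifferentiated libraries. The differentiated libraries lay far above the others, and the log2 fold change was 3.86 ± 0.15 SE (limma adjusted p = 2.74e-07), or 2.53 with coding transcripts alone. BLVRB, a biliverdin reductase, averaged 15.2 ± 0.543 TPM in differentiated cells and 3.29 ± 0.355 TPM in undifferentiated cells (SD, n = 4; log2 fold change 1.92 ± 0.08 SE, limma adjusted p = 3.01e-07). NQO2, a quinone reductase related to NQO1, averaged 32.8 ± 1.01 TPM in differentiated cells and 9.83 ± 0.452 TPM in undifferentiated cells (log2 fold change 1.64 ± 0.05 SE, limma adjusted p = 7.83e-08). EPHX1, which hydrolyses epoxides, averaged 22.5 ± 0.915 TPM in differentiated cells and 6.66 ± 0.624 TPM in undifferentiated cells (log2 fold change 1.62 ± 0.07 SE, limma adjusted p = 5.56e-07).

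Of the 4 genes that make and recycle glutathione, 1 was higher, 1 was lower and 2 did not pass the test. Of all genes tested, 33.9% were higher and 17.4% lower. GCLC, the catalytic subunit of glutamate-cysteine ligase, which catalyses the rate-limiting step, had 26.2, 21.1, 22.1 and 22.03 TPM in differentiated libraries, against 26.5, 24.9, 26.5 and 27.9 TPM in undifferentiated libraries. The groups overlapped, through differentiated replicate 21. Its log2 fold change was -0.21 ± 0.07 SE (limma adjusted p = 0.0458) and its call was lost in 11 of 16 alternatives, among them the removal of any single library other than replicate 21. Under median-of-ratios scaling the log2 fold change was -0.33 (limma adjusted p = 0.00103) and under quantile normalization -0.37 (limma adjusted p = 0.000747). With coding transcripts alone it was -0.09 and was not called. GCLM, the modifier subunit, had 13.4, 10.7, 9.71 and 9.801 TPM in differentiated libraries, against 9.95, 10.9, 8.44 and 7.73 TPM in undifferentiated libraries. Its groups overlapped, and its log2 fold change of 0.22 ± 0.13 SE did not pass the test (limma adjusted p = 0.202), whereas with coding transcripts alone it was 0.47 and passed. The level of GCLC divided by that of GCLM was 2.11 ± 0.176 in differentiated cells and 2.92 ± 0.571 in undifferentiated cells (SD, n = 4), and the groups did not overlap in this ratio by a narrow margin (at most 2.28 in differentiated and at least 2.29 in undifferentiated libraries).

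GSS, glutathione synthetase, which completes the tripeptide, averaged 28.6 ± 2.32 TPM in differentiated cells and 22.5 ± 0.671 TPM in undifferentiated cells (SD, n = 4), without overlap (log2 fold change 0.33 ± 0.06 SE, limma adjusted p = 0.00248), and lost its call under both other scalings. GSR, the reductase that regenerates glutathione from its disulfide, was low and variable, at 2.59, 1.16, 2.23 and 2.52 TPM in differentiated libraries, against 2.81, 1.04, 1.17 and 2.03 TPM in undifferentiated libraries. Its groups overlapped (log2 fold change 0.20 ± 0.25 SE, limma adjusted p = 0.543). The 4 genes together summed to 64.4 ± 3.12 TPM in differentiated cells and 59.9 ± 1.71 TPM in undifferentiated cells.

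Of 24 other genes of glutathione supply and turnover, 20 were tested, 7 higher and 6 lower, with a median log2 fold change of -0.04. Over genes at 1 TPM or above in each group, 36.8% were higher and 31.6% lower, beside 33% and 17.6% of all such genes. CBS, the cystathionine synthase of the route from methionine to cysteine, had 56.3, 39.9, 50.8 and 51.9 TPM in differentiated libraries, against 143.9, 140.9, 144.1 and 142.2 TPM in undifferentiated libraries. All differentiated libraries were far below the others (log2 fold change -1.51 ± 0.10 SE, limma adjusted p = 4.12e-06). MAT2A, which makes S-adenosylmethionine at the head of that route, was also lower, at 238.2 ± 31.1 TPM in differentiated cells and 405.9 ± 11.98 TPM in undifferentiated cells (log2 fold change -0.78 ± 0.09 SE, limma adjusted p = 0.000143). CDO1, which oxidises cysteine and so draws on the same pool, was higher, at 35.5 ± 4.13 TPM in differentiated cells and 16.4 ± 1.68 TPM in undifferentiated cells (log2 fold change 1.07 ± 0.10 SE, limma adjusted p = 4.18e-05). ANPEP, an aminopeptidase, was higher at a low level, at 3.14 ± 0.752 TPM in differentiated cells and 1.298 ± 0.258 TPM in undifferentiated cells (log2 fold change 0.84 ± 0.16 SE, limma adjusted p = 0.00233).

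The glutathione peroxidases, which reduce peroxides with glutathione, included 4 tested at 1 TPM or above in each group, GPX1, GPX3, GPX4 and GPX7. All 4 were higher in differentiated cells, beside 33% of all such genes. The call of GPX7 was lost under quantile normalization. GPX1, GPX3, GPX4, GPX7 and GPX8 summed to 261.2, 345.4, 333.6 and 294.5 TPM in differentiated libraries, against 164.5, 159.8, 167.1 and 157.5 TPM in undifferentiated libraries. The differentiated libraries were all higher and also more spread out. GPX4, which reduces lipid peroxides in membranes and guards against ferroptosis, made up most of the sum, with 146.6, 194.3, 201.6 and 176.1 TPM in differentiated libraries, against 93.1, 90.3, 92.4 and 92.1 TPM in undifferentiated libraries. Every differentiated library was above the undifferentiated ones (log2 fold change 0.95 ± 0.09 SE, limma adjusted p = 5.38e-05). Its share of the family's TPM was 58.1% ± 2.28 in differentiated cells and 56.7% ± 1.33 in undifferentiated cells (SD, n = 4), with overlapping groups.

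GPX1, the cytosolic peroxidase, had 65.6, 94.6, 84.3 and 70.9 TPM in differentiated libraries, against 47.7, 44.5, 50.1 and 40.4 TPM in undifferentiated libraries. The groups did not overlap, and replicates 22 and 23 were the highest (log2 fold change 0.77 ± 0.12 SE, limma adjusted p = 0.000879). GPX1 has pseudogene copies, so its level is uncertain. GPX3, the secreted peroxidase, had 21.5, 20.2, 17.1 and 17.9 TPM in differentiated libraries, against 6.27, 6.39, 5.73 and 5.67 TPM in undifferentiated libraries. It too was higher in all differentiated libraries (log2 fold change 1.52 ± 0.08 SE, limma adjusted p = 1.98e-06). GPX7 and GPX8, peroxidases of the endoplasmic reticulum, had different levels. GPX7 averaged 25.6 ± 3.63 TPM in differentiated cells and 17.6 ± 0.759 TPM in undifferentiated cells (log2 fold change 0.51 ± 0.09 SE, limma adjusted p = 0.00199). GPX8 had 4.88, 5.44, 5.996 and 5.43 TPM in differentiated libraries, against 0.8299, 1.29, 0.842 and 1.01 TPM in undifferentiated libraries. All differentiated libraries were above the undifferentiated ones, but the gene was tested only because its differentiated level carried the mean over the minimum, so no test is given for it.

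**Figure D4:**
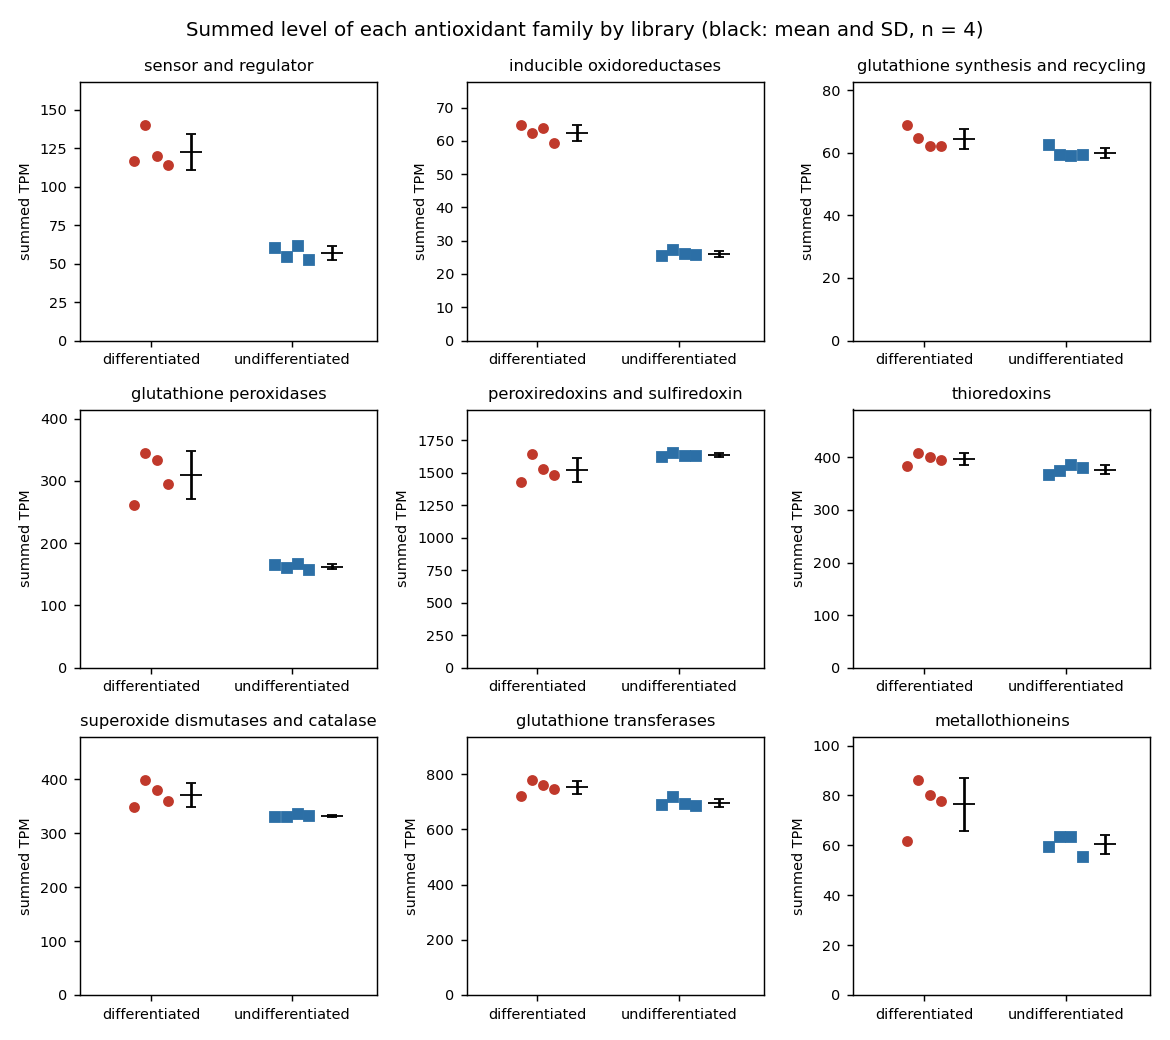
Summed TPM of each family in each library, with the mean and SD (n = 4) in black beside the points and axes that start at 0. In TPM as deposited, the glutathione peroxidases, the sensor and regulator pair, the inducible oxidoreductases (NQO1 with HMOX1), the superoxide dismutases with catalase and the glutathione transferases do not overlap between groups. Family sums under the other scalings are not given, and small gaps between groups may depend on scaling. The thioredoxins, the metallothioneins, the genes of glutathione synthesis and recycling and the peroxiredoxins with sulfiredoxin overlap (the last at 1426 to 1643 TPM in differentiated and 1618 to 1654 TPM in undifferentiated libraries).

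Peroxiredoxins reduce peroxides with a cysteine thiol and had the highest summed TPM of the families. PRDX1, a cytosolic peroxiredoxin and the most abundant of all members, had 411.5, 462.8, 443 and 450 TPM in differentiated libraries, against 640.5, 646.6, 637.3 and 646.3 TPM in undifferentiated libraries. All differentiated libraries were lower, and the undifferentiated values were close together (log2 fold change -0.54 ± 0.04 SE, limma adjusted p = 1.13e-05). It was the only member called lower in each of the 16 alternatives. It lies on chromosome 1 (chr1:45511036-45523047, minus strand) and overlaps MMACHC on the opposite strand. As a share of the TPM of the 6 peroxiredoxins, PRDX1 made up 29.6% ± 0.944 in differentiated cells and 39.9% ± 0.312 in undifferentiated cells (SD, n = 4).

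Of the 5 other peroxiredoxins, 3 were higher and 2 did not pass the test, beside 33.9% higher of all genes tested. PRDX6, which also has phospholipase activity, had 280.4, 297.2, 303.2 and 302.8 TPM in differentiated libraries, against 255.8, 258, 254.7 and 257.3 TPM in undifferentiated libraries. The groups did not overlap (log2 fold change 0.21 ± 0.03 SE, limma adjusted p = 0.00133), but the difference lost its call under median-of-ratios scaling. PRDX3 of the mitochondria averaged 217.3 ± 11.5 TPM in differentiated cells and 198 ± 2.09 TPM in undifferentiated cells (log2 fold change 0.13 ± 0.04 SE, limma adjusted p = 0.0322). PRDX4 of the endoplasmic reticulum averaged 74.3 ± 6.65 TPM in differentiated cells and 65.04 ± 1.06 TPM in undifferentiated cells (log2 fold change 0.19 ± 0.06 SE, limma adjusted p = 0.0382). Both calls were lost in 10 of the 16 alternatives. PRDX2 and PRDX5 overlapped between groups, with log2 fold changes of -0.09 ± 0.07 SE (limma adjusted p = 0.33) and 0.17 ± 0.09 SE (limma adjusted p = 0.177). Without replicate 22 the PRDX2 log2 fold change was -0.15 and passed the test.

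SRXN1, sulfiredoxin, which restores overoxidised peroxiredoxins and is an NRF2 target, had 27.8, 29.5, 29.3 and 27.3 TPM in differentiated libraries, against 21.1, 19.96, 21.1 and 19.4 TPM in undifferentiated libraries. All differentiated libraries were higher (log2 fold change 0.46 ± 0.05 SE, limma adjusted p = 9.39e-05). The 3 thioredoxin genes did not pass the test. TXN, the cytosolic thioredoxin, averaged 237.2 ± 16.5 TPM in differentiated cells and 219.9 ± 6.58 TPM in undifferentiated cells (log2 fold change 0.11 ± 0.05 SE, limma adjusted p = 0.138). TXN2, its mitochondrial form, averaged 65.7 ± 5.02 TPM in differentiated cells and 65.03 ± 2.26 TPM in undifferentiated cells (log2 fold change 0.01 ± 0.06 SE, limma adjusted p = 0.887). TXNRD1, the reductase that recharges thioredoxin, averaged 94.1 ± 9.65 TPM in differentiated cells and 91.5 ± 1.59 TPM in undifferentiated cells (log2 fold change 0.03 ± 0.07 SE, limma adjusted p = 0.726). The signs of these 3 log2 fold changes turned under median-of-ratios scaling, to -0.02, -0.12 and -0.10.

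Catalase (CAT), the peroxisomal enzyme that breaks down hydrogen peroxide, had 42.5, 39.9, 39.0 and 39.9 TPM in differentiated libraries, against 28.8, 23.1, 27.4 and 25.1 TPM in undifferentiated libraries. The groups did not overlap (log2 fold change 0.61 ± 0.07 SE, limma adjusted p = 0.000156). With coding transcripts alone the CAT log2 fold change was 0.39 and still passed. The coding CAT-201 held 60.7% of CAT in differentiated and 71.1% in undifferentiated cells, a difference in share that did not pass the test. SOD2, the mitochondrial superoxide dismutase, had 63.2, 54.9, 64.2 and 61.5 TPM in differentiated libraries, against 43.2, 42.7, 40.9 and 42.6 TPM in undifferentiated libraries. All differentiated libraries were higher, replicate 22 by the least (log2 fold change 0.51 ± 0.06 SE, limma adjusted p = 9.83e-05). SOD1, the abundant cytosolic dismutase, overlapped between groups at 270.4 ± 26.5 TPM in differentiated cells and 263.2 ± 3.98 TPM in undifferentiated cells (log2 fold change 0.03 ± 0.07 SE, limma adjusted p = 0.704), and its sign turned to -0.10 under median-of-ratios scaling. SOD3, the extracellular form, was listed at 0 in 7 of 8 libraries and at 0.36 TPM in differentiated replicate 24.

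Most of the SOD2 TPM was assigned to SOD2-214, which is annotated as a target of nonsense-mediated decay. It had 34.5 ± 1.09 TPM in differentiated cells and 22.97 ± 0.614 TPM in undifferentiated cells, or 56.7% of SOD2 in differentiated and 54.2% in undifferentiated cells. SOD2 overlaps WTAP, which is on the opposite strand. Of 21 oxidant-producing enzymes, 9 were tested, 4 were higher and none lower, with a median log2 fold change of 0.26. Of all genes tested, 33.9% were higher and 17.4% lower, with a median of 0.10. MAOB, monoamine oxidase B, averaged 6.93 ± 0.524 TPM in differentiated cells and 1.84 ± 0.2104 TPM in undifferentiated cells (log2 fold change 1.48 ± 0.09 SE, limma adjusted p = 3.21e-06). CYBA, a subunit of NADPH oxidases, averaged 65.7 ± 2.74 TPM in differentiated cells and 25.1 ± 1.14 TPM in undifferentiated cells (log2 fold change 1.35 ± 0.05 SE, limma adjusted p = 2.21e-07). CYB5R3 and POR, reductases of the endoplasmic reticulum, were higher by 0.86 ± 0.07 SE (limma adjusted p = 1.9e-05) and 0.31 ± 0.05 SE (limma adjusted p = 0.00149) on the log2 scale.

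Glutathione transferases join glutathione to electrophiles. GSTP1, the most abundant of them, overlapped between groups, with 366.9, 422.8, 404.4 and 383.9 TPM in differentiated libraries, against 415.4, 444, 428.5 and 417 TPM in undifferentiated libraries. Its log2 fold change of -0.11 ± 0.05 SE did not pass the test (limma adjusted p = 0.0933), and without replicate 22 it was -0.15 and passed. GSTM2 and GSTM4 lie beside each other on chromosome 1 (chr1:109668022-109709551 and chr1:109656081-109674836, plus strand) and overlap. GSTM2 had 92.03, 89.5, 84.8 and 87.1 TPM in differentiated libraries, against 38.3, 38.1, 39.1 and 38.7 TPM in undifferentiated libraries. GSTM4 had 29.6, 30.8, 29.3 and 29.8 TPM in differentiated libraries, against 13.5, 12.1, 13.3 and 12.1 TPM in undifferentiated libraries. All differentiated libraries were more than 2 times the undifferentiated ones in both genes, and the log2 fold changes were 1.17 ± 0.04 SE for GSTM2 (limma adjusted p = 1.13e-07) and 1.17 ± 0.05 SE for GSTM4 (limma adjusted p = 6.33e-07).

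Because of their overlap and similar sequences, the division of reads between GSTM2 and GSTM4 is uncertain. Of GSTM2, much was assigned to retained-intron transcripts. GSTM2-211 had 38.5 ± 5.09 TPM in differentiated cells and 15.1 ± 1.19 TPM in undifferentiated cells, and the coding GSTM2-201 had 15.9 ± 2.38 TPM in differentiated cells and 10.5 ± 1.13 TPM in undifferentiated cells. With coding transcripts alone the GSTM2 log2 fold change was 0.68 and still passed. GSTM3, on the opposite strand nearby (chr1:109733932-109741038), averaged 46.1 ± 3.58 TPM in differentiated cells and 39.1 ± 1.89 TPM in undifferentiated cells (log2 fold change 0.23 ± 0.06 SE, limma adjusted p = 0.0163), and its call was lost in 4 alternatives, both other scalings among them. The windows before the starts of GSTM2 and GSTM4 were identical at 49.8% of 281 alignment columns, and those of GSTM2 and GSTM3 at 41.8%.

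GSTA4, which conjugates the lipid peroxidation product 4-hydroxynonenal, overlapped between groups at 83.7 ± 4.17 TPM in differentiated cells and 84.4 ± 2.34 TPM in undifferentiated cells (log2 fold change -0.01 ± 0.05 SE, limma adjusted p = 0.85). MGST3, a microsomal transferase, overlapped at 109.2 ± 11.5 TPM in differentiated cells and 93.2 ± 6.79 TPM in undifferentiated cells (log2 fold change 0.22 ± 0.08 SE, limma adjusted p = 0.0519), just above the threshold. MGST1 stayed at 0.531 ± 0.445 TPM in differentiated cells and 0.713 ± 0.299 TPM in undifferentiated cells and was not tested. Transcript shares were tested for 43 transcripts of 18 members, and none passed the test with a difference of 10 percentage points, beside 2.4% of all 22951 transcripts tested. Of the 43, 10 had an unadjusted p under 0.05 in limma, 4 of them with 10 points or more. Without replicate 22, GSTM2-201 was called, at 10.5 points lower in differentiated cells.

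**Figure D5:**
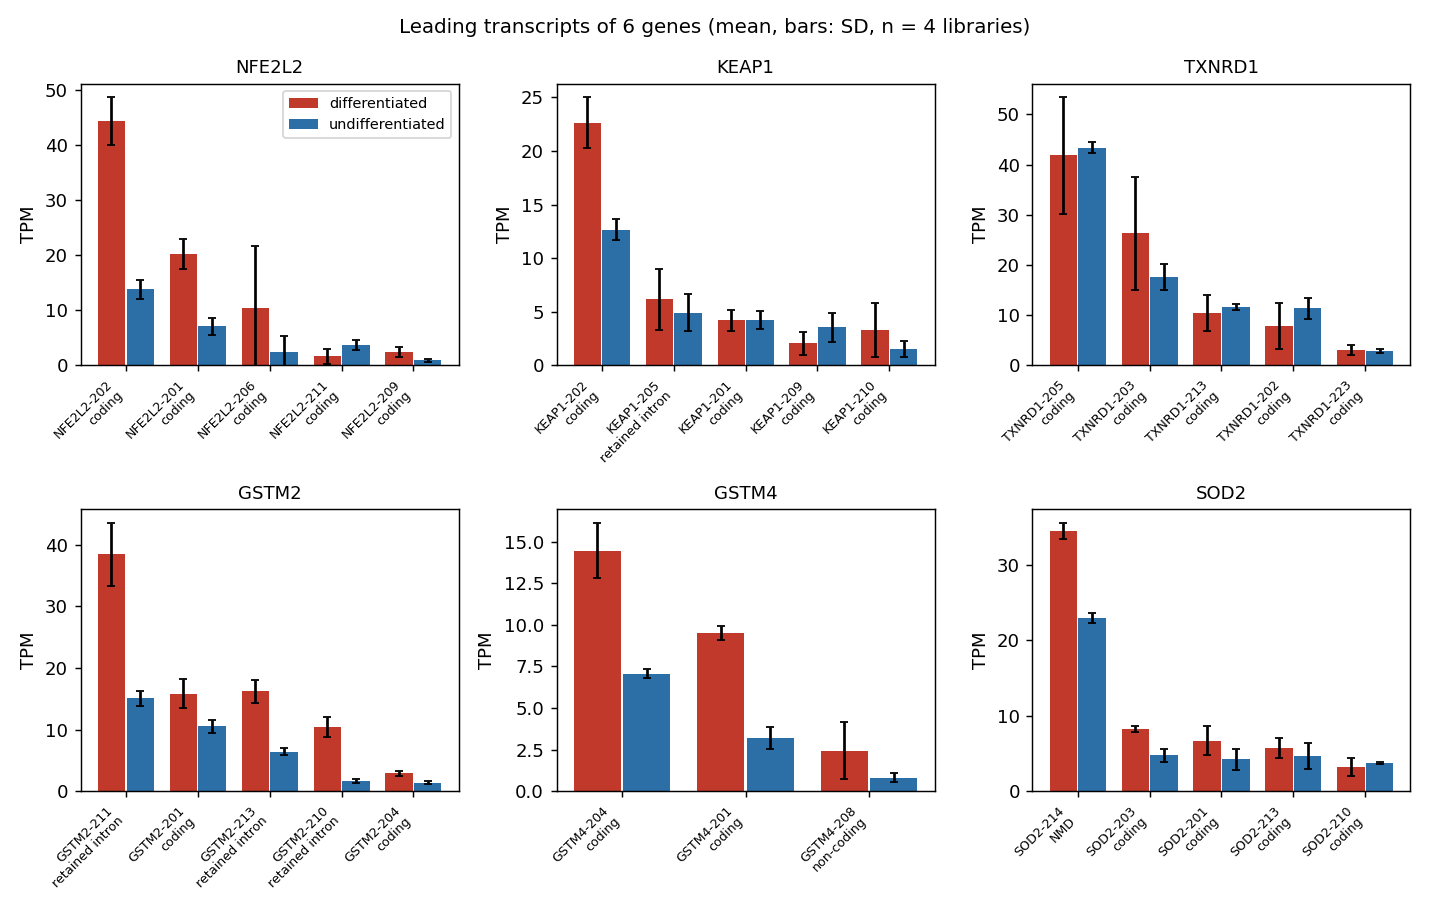
Mean TPM and SD (n = 4) of the leading transcripts of NFE2L2, KEAP1, TXNRD1, GSTM2, GSTM4 and SOD2 in differentiated (left bar) and undifferentiated cells (right bar), with the annotated type under each name. GSTM2-211, a retained-intron transcript, is the largest of GSTM2 in both groups, and SOD2-214, annotated for nonsense-mediated decay (NMD), the largest of SOD2.

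Metallothioneins MT2A and MT1X lie on chromosome 16 (chr16:56608199-56609497 and chr16:56682424-56684196, plus strand). MT2A had 36.7, 53.2, 48.9 and 46.5 TPM in differentiated libraries, against 30.01, 32.3, 31.8 and 25.6 TPM in undifferentiated libraries. The groups did not overlap, with replicate 21 lowest among differentiated libraries (log2 fold change 0.61 ± 0.12 SE, limma adjusted p = 0.0031). MT1X had 24.8, 33.1, 31.3 and 31.1 TPM in differentiated libraries, against 29.4, 31.1, 31.5 and 29.8 TPM in undifferentiated libraries, with overlapping groups (log2 fold change -0.02 ± 0.09 SE, limma adjusted p = 0.835). MT1E was listed at 0 in all libraries. The RefSeq windows of MT2A and MT1X, printed above, were identical at 53.9% of 271 alignment columns. Metallothioneins are close paralogs, so their levels are uncertain.

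Of 24 other metallothionein and zinc or copper genes, 15 were tested, 8 higher and 1 lower, with a median log2 fold change of 0.18. That is 53.3% higher and 6.67% lower, beside 33.9% and 17.4% of all genes tested, whose median was 0.10. ATP7A, a copper transporter, had 81.5, 27.4, 49.5 and 70.1 TPM in differentiated libraries, against 14.1, 15.9, 13.5 and 14.4 TPM in undifferentiated libraries. The differentiated libraries ranged widely, with replicate 22 the lowest (log2 fold change 1.80 ± 0.30 SE, limma adjusted p = 0.0012). SLC39A1, a zinc importer, averaged 136.9 ± 3.66 TPM in differentiated cells and 69.97 ± 0.804 TPM in undifferentiated cells (log2 fold change 0.96 ± 0.03 SE, limma adjusted p = 1.73e-07). SLC30A4, a zinc exporter, and ATOX1, a copper chaperone, were higher by 0.76 ± 0.08 SE (limma adjusted p = 9.79e-05) and 0.59 ± 0.10 SE (limma adjusted p = 0.00151) on the log2 scale.

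Of 50 other peroxidases, transferases and thioredoxin family genes, 38 were tested, 20 higher and 2 lower, with a median log2 fold change of 0.21. Without GSTT2, which was tested only through its differentiated level, 19 of 37 were higher (51.4%) and 5.41% lower. Of all genes at 1 TPM or above in each group, 33% were higher and 17.6% lower. MSRB3, a methionine sulfoxide reductase, had 33.5, 28.6, 33.1 and 32.8 TPM in differentiated libraries, against 4.85, 5.37, 5.44 and 5.08 TPM in undifferentiated libraries. The differentiated libraries were far above the others (log2 fold change 2.41 ± 0.07 SE, limma adjusted p = 4.85e-08). GLRX, the glutaredoxin that removes glutathione from proteins, averaged 63.6 ± 6.12 TPM in differentiated cells and 15.3 ± 1.97 TPM in undifferentiated cells (log2 fold change 1.99 ± 0.10 SE, limma adjusted p = 1.45e-06). AIFM2, a suppressor of ferroptosis that works in parallel to GPX4, averaged 5.901 ± 0.153 TPM in differentiated cells and 1.38 ± 0.102 TPM in undifferentiated cells (log2 fold change 1.54 ± 0.07 SE, limma adjusted p = 9.36e-07). GSTT2 had 1.62, 2.24, 1.97 and 2.28 TPM in differentiated libraries, against 0, 1.27, 0 and 0 TPM in undifferentiated libraries. No fold change is given, because 3 undifferentiated libraries were listed at 0. Over the 6 other lists together, 67 of 134 tested genes were higher and 20 lower, with a median log2 fold change of 0.19, beside 33.9% higher, 17.4% lower and a median of 0.10 over all genes. Over genes at 1 TPM or above in each group, 64 of 129 were higher (49.6%, beside 33% of all such genes). After median-of-ratios scaling 53 were higher and 26 lower, beside 27.1% and 26.1% of all genes, and after quantile normalization 51 and 29, beside 24.4% and 29.9%. Without replicate 22 the counts were 72 and 22, beside 39% and 18.1% of all genes. The higher counts under both scalings and without replicate 22 include AKR1C3, CBR3 and GSTT2. These were tested only through their differentiated level, and no count without them was made in those fits.

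Of the 7 members with the antioxidant core in a window, KEAP1 and MT2A were higher in differentiated cells, beside 33.9% of all genes, and the call of KEAP1 was lost under both other scalings. GCLM, GSTA4, GSTP1, MT1X and TXNRD1 did not pass the test. With so few genes nothing is read from this count.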

How the data were processed

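Messenger RNA of 8 SH-SY5Y libraries was sequenced. The file that the authors deposited gives TPM of 194993 Ensembl transcripts, and each library sums to 1000000. The tools were FastQC 0.11.2 and Salmon and the build was GRCh37, per the submitters' processing notes, and per the labels' protocols the libraries came from a stranded kit. Salmon's version and settings, annotation release and strand use were not given in the sources used here. It divides reads among similar sequences, so paralogs, pseudogenes and overlapping genes have uncertain levels.

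Transcripts were matched to GENCODE 29 (GRCh38) by identifier without version (180930, 92.8%, holding 93.2% to 95% of TPM) and summed to 52719 genes, with the identifier of the highest mean used where a symbol had several. Positions are GRCh38. Genes averaging 1 TPM or above were tested with limma 3.58.1 (R 4.3.3) on log2(TPM+1), a pseudocount of 1, with an intensity trend and the group as the only term, two-sided, at a Benjamini-Hochberg adjusted p under 0.05. The exact permutation test over 4 against 4 libraries cannot go below p = 0.0286, which every member whose groups did not overlap reached. Fold changes on this scale understate changes of low genes. Transcript shares were tested with limma on the arcsine square root, where the gene reached 5 TPM in both groups and the mean share lay within 10% and 90%. The code was tested on simulated data. Promoter windows came from RefSeq (GRCh38.p14). Python 3.11.15 with pandas 2.3.3, numpy 2.4.6, scipy 1.17.1 and matplotlib 3.10.9 handled the tables. The text names the 37 members and, of each other list, up to 4 called genes with the largest log2 fold change whose groups did not overlap. Members and lists were chosen with earlier results of these data known. Alternatives were pseudocount, filter, scaling, lane, coding transcripts and leaving out each library, and, added after the data were seen, counting only genes at 1 TPM or above in each group. Undifferentiated replicates 17 and 18 were on lane 7 and all other libraries on lane 8.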

Additional observations from a re-analysis of the deposited data

Results flagged for a closer look

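Of 89 groups of 4 libraries checked for a library far from the other 3, 3 had one, and chance gives about 1 in 20 groups. SOD3 had 0.3601 TPM in differentiated replicate 24 and 0 in the other differentiated libraries. GSTA4 had 87.89 TPM in undifferentiated replicate 20, against 83.18 to 83.26 TPM in the other undifferentiated libraries. The summed glutathione synthesis and recycling genes had 62.46 TPM in undifferentiated replicate 17, against 58.77 to 59.27 TPM in the other undifferentiated libraries.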

How the results depend on the processing

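No paired analysis was possible because the groups share no replicate numbers. The number of genes lower in differentiated cells, 2970 as reported, was 5098 with quantile normalization and 1914 within lane 8. The count of lower members, 2 as reported, was 1 without a filter on low values, within lane 8, with lane as a term and with coding transcripts only. The other pathway genes that were lower numbered 20 as reported and 13 within lane 8. Leaving out 1 library at a time gave 7770 to 9763 called genes, 5237 to 6665 higher and 2533 to 3371 lower. It gave 17 to 20 higher members, 1 to 3 lower members (3 without replicate 22: PRDX1, PRDX2 and GSTP1), 56 to 72 higher and 17 to 22 lower other pathway genes, and 0 to 1 called member transcripts. The counts of higher genes include GPX8 among members, and AKR1C3, CBR3 and GSTT2 among other pathway genes. These genes were tested only through their differentiated level.

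The sign of a log2 fold change turned, never for a called gene, under median-of-ratios scaling for TXN (-0.02), TXN2 (-0.12), TXNRD1 (-0.10) and SOD1 (-0.10), and under quantile normalization for TXN2 (-0.11) and TXNRD1 (-0.06). TXN2 also turned within lane 8 (-0.01), with lane as a term (-0.01), and with coding transcripts (-0.0066), and GSTA4 with coding transcripts (0.0097). Leaving out 1 library at a time, the log2 fold change ranged over both signs for TXN2 (-0.03 to 0.04), TXNRD1 (-0.02 to 0.10), SOD1 (-0.02 to 0.08), MT1X (-0.07 to 0.06) and GSTA4 (-0.03 to 0.02). Calls gained were HMOX1 and GCLM (coding transcripts), PRDX2 and GSTP1 (without 22), TXN (without 21) and MGST3 (in 5 alternatives). The HMOX1 call carries no weight, because its coding HMOX1-201 averaged under 1 TPM in undifferentiated cells. The causes were not tested.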
